A study of Mus musculus with 162 samples.

Results

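Young glutamatergic neurons that the submitters named Glutamatergic 1 and Glutamatergic 2 were compared in mouse embryos, within cells of the Htr3a Cre driver line. The comparison took every cell of that line that passed the submitters' quality control and carried either label, 23 Glutamatergic 1 cells and 12 Glutamatergic 2 cells, which is 35 of the 162 cells of the series. All came from embryos at E17.5 to E18.5 and carried Htr3a Cre, a recombinase driven by the promoter of a serotonin receptor gene that marks a class of interneurons, and no treatment is labelled. Each sample was the cytosol of 1 cell drawn into a patch-clamp pipette, of which total RNA was sequenced. The labels give no cortical layer, brain region, animal, litter or culture.

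Glutamatergic neurons of the cerebral cortex and hippocampus are born from progenitors of the dorsal telencephalon, settle in layers or fields, and grow axons before birth. Transcription factors of the basic helix-loop-helix (bHLH) family, such as Neurod1, drive their differentiation, and Id proteins such as Id2 block such factors by binding their partners. Growing axons are steered by semaphorins, which act through neuropilins and plexins, and neurons sort and adhere through cadherins.

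Since no label names an animal, the 23 cells count as 1 sample and the 12 cells as another, and no difference was tested. A level is given as CPM, a gene's share of a cell's or a label's summed counts on a common scale. The log2 difference is the mean over cells of log2(CPM + 1) in Glutamatergic 1 minus that in Glutamatergic 2. Beside it stand the log2 ratio of the labels' summed counts and the log2 difference among 9 pairs of cells, 1 of each label, with gene numbers within 20% of each other. The paired cells still differed in gene number, with medians of 6453 in Glutamatergic 1 and 7767 in Glutamatergic 2. The spread between cells is given as the lowest, median and highest cell or as an SD over 23 and 12 cells. The 95% intervals are exact (Poisson for CPM, Clopper-Pearson for shares of cells) and cover counting error only, and even for that those of CPM are too narrow, since PCR copies of a molecule were not told apart. How the submitters assigned the type labels is not given in the sources used here; where expression of these cells entered, genes that marked a label are no independent evidence of it.

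Glutamatergic 1 cells held fewer genes than Glutamatergic 2 cells. They held 1828374 to 21437441 counts (median 9341793), against 2473612 to 19856378 (median 11531690.5) in Glutamatergic 2 cells. Genes with a count numbered 2716 to 9170 (median 5183) in Glutamatergic 1 cells and 5636 to 9510 (median 7642) in Glutamatergic 2 cells. With every cell thinned to 1828374 counts the medians were 4631 genes in Glutamatergic 1 and 7220.5 in Glutamatergic 2, so the gap remained at equal counts. Fewer genes drawn from a cell and fewer genes in use in it cannot be told apart here.

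That gap went with a lower log2 difference over measured genes as a whole, and the cause of this shift was not tested. Of 22879 genes in the table, 10245 had a count in at least 7 of the 35 cells and were taken as measured. The median log2 difference over measured genes was -1.18, while it was -0.08 by summed counts and -0.48 among the paired cells. A log2 difference of at least 1 was met by 213 genes (2.08%) and one of at most -1 by 5749 genes (56.1%). By summed counts 1482 genes (14.5%) were at least 2-fold higher in Glutamatergic 1 and 2070 (20.2%) at least 2-fold lower, and among paired cells 1137 (11.1%) and 3529 (34.4%). A gene is therefore called higher or lower by all 3 measures only where each passed 1 on the log2 scale in that direction. That held for 1.38% of measured genes on the higher side and 12.9% (1320 genes) on the lower side, and the shares of the gene lists are read against these.

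**Figure D1:**
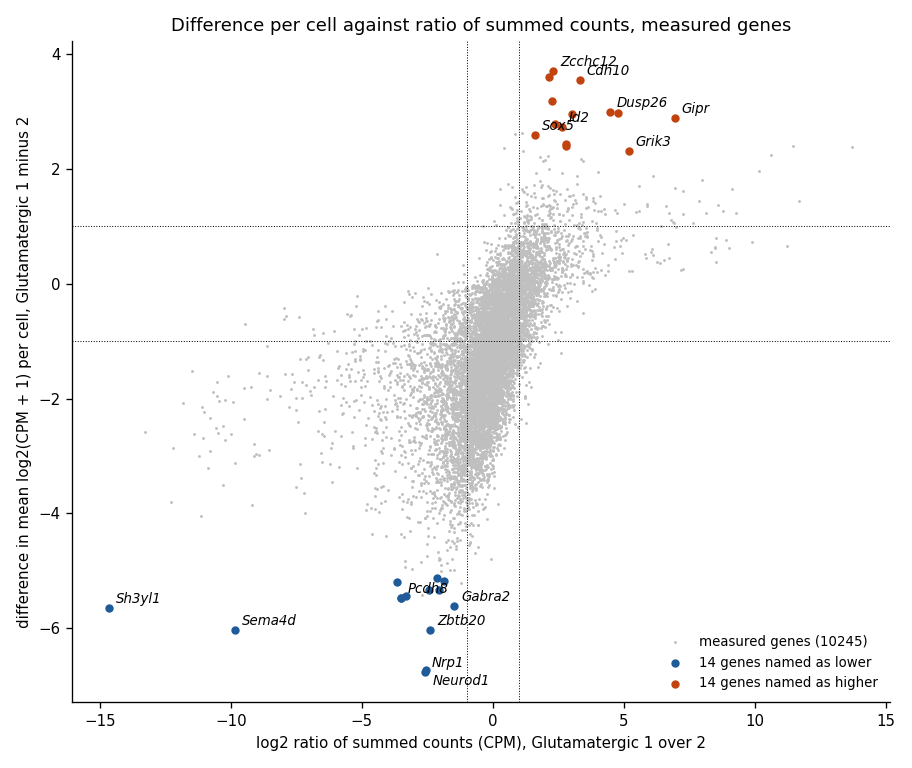
Each point is 1 measured gene. The horizontal axis is the log2 ratio of summed CPM, Glutamatergic 1 over 2 (a label with no count is set to 3 counts), the vertical axis the difference in mean log2(CPM + 1) per cell, Glutamatergic 1 minus 2, and dotted lines mark 1 and -1. The cloud lies below 0 on the vertical axis (median -1.18) and near 0 on the horizontal axis (median -0.08). The 28 genes named by rule lie past the dotted lines on both axes, as the rule asked.

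Both labels carried markers of glutamatergic neurons. Slc17a7, the vesicular glutamate transporter VGLUT1, had a count in 21 of 23 Glutamatergic 1 cells and 12 of 12 Glutamatergic 2 cells, at 156 CPM of summed counts in Glutamatergic 1 and 231 CPM in Glutamatergic 2. The summed level of 19 glutamatergic markers was 2467 to 6600 CPM (median 4358) in Glutamatergic 1 cells and 2425 to 5997 CPM (median 5139) in Glutamatergic 2 cells. Htr3a, whose promoter drives the Cre, had a count in 5 of 23 Glutamatergic 1 cells (15.2 CPM) and 4 of 12 Glutamatergic 2 cells (2.24 CPM). Among 10 markers of GABAergic neurons, Gad1, Slc32a1 and Dlx1 were at 0 in all Glutamatergic 2 cells. Over 100 CPM of the 10 together was held by 2 of 23 Glutamatergic 1 cells (highest 1384 CPM) and 0 of 12 Glutamatergic 2 cells (highest 25.04 CPM).

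RNA of other cell types was present in some cells of both labels. The 12 microglia markers summed to 0 to 6113 CPM (median 0.547) in Glutamatergic 1 cells, 4 of 23 above 100 CPM, and to 3.32 to 4439 CPM (median 53.4) in Glutamatergic 2 cells, 5 of 12 above 100 CPM. The 10 astrocyte markers had medians of 356 CPM in Glutamatergic 1 and 655 CPM in Glutamatergic 2, with Aldh1l1, Gjb6 and Mlc1 at 0 in both. Erythrocyte genes passed 100 CPM in 9 of 23 Glutamatergic 1 cells and 1 of 12 Glutamatergic 2 cells. Neurog1 and Eomes, which mark progenitors, were at 0 in both labels, as were Pdgfra and Sox10 of the oligodendrocyte lineage and Flt1 and Kdr of endothelium. Other members of these lists had counts. The 13 intermediate progenitor markers together passed 100 CPM in 18 of 23 Glutamatergic 1 and 12 of 12 Glutamatergic 2 cells. For 18 proliferation genes it was 16 of 23 and 10 of 12 cells. For 10 oligodendrocyte lineage markers it was 5 of 23 and 6 of 12, and for 12 endothelial and mural markers 2 of 23 and 0 of 12. The part of such RNA in the results below was not tested gene by gene.

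Several cells stood apart from their label. Cells are numbered within a label in the order of their records. Of the 14 genes named below as lower in Glutamatergic 1, cells 1, 2 and 4 of that label held a count of 10, 13 and 10, against a median of 2 over the 23 Glutamatergic 1 cells and of 14 over the 12 Glutamatergic 2 cells. The same 3 cells held 2, 6 and 5 of the 14 genes named as higher, where the median was 11 in Glutamatergic 1 and 5.5 in Glutamatergic 2. In these genes cells 1, 2 and 4 thus lay nearer the other label. Glutamatergic 2 cells 11 and 12 lay between, with 9 and 8 of the lower genes and 10 and 8 of the higher ones.

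The number in a sample's title went with this pattern, and what it records is not stated in the sources used here. Titles up to 40 belonged to 5 Glutamatergic 1 and 9 Glutamatergic 2 cells, and titles above 40 to 18 Glutamatergic 1 and 3 Glutamatergic 2 cells. Up to 40, the lower genes held numbered 2 to 13 (median 10) in Glutamatergic 1 cells and 12 to 14 (median 14) in Glutamatergic 2 cells. Above 40 they numbered 0 to 9 (median 1.5) in Glutamatergic 1 cells and 8 to 14 (median 9) in Glutamatergic 2 cells. The higher genes held numbered 2 to 12 (median 5) in Glutamatergic 1 cells and 2 to 8 (median 5) in Glutamatergic 2 cells up to 40, and 5 to 14 (median 12) in Glutamatergic 1 cells and 4 to 10 (median 8) in Glutamatergic 2 cells above 40. The labels thus differed in the lower genes within both ranges, and in the higher genes by their medians above 40 and not up to 40. These genes were chosen for their difference between the labels, few cells stand on 1 side of each range, and label and title number can be told apart only in part. Of the 14 lower genes, all 14 had a log2 difference of at most -1 in either range, but by summed counts 8 were at least 2-fold lower up to 40 and 13 above. Of the 14 higher genes, 6 had a log2 difference of at least 1 up to 40 and 13 above, and by summed counts 12 and 9 were at least 2-fold higher.

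**Figure D2:**
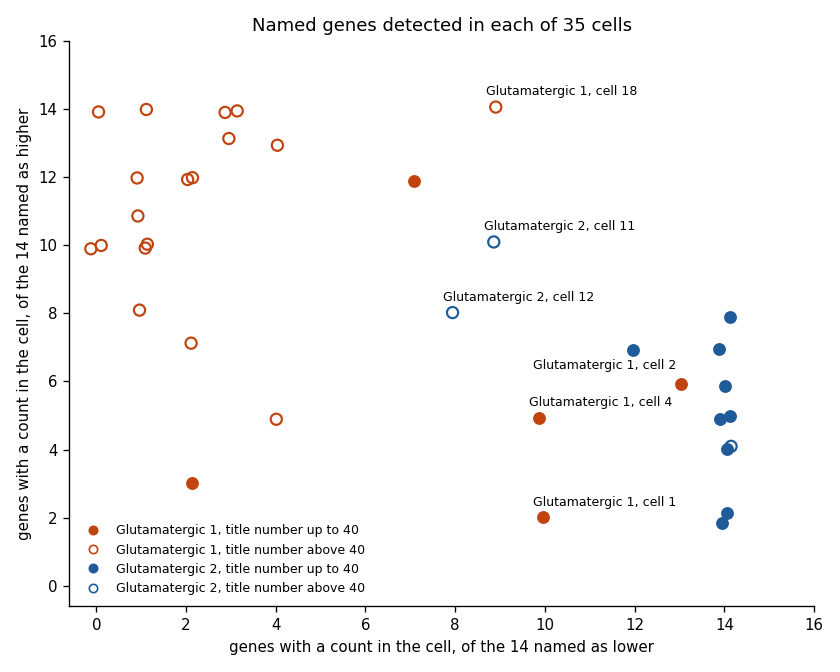
Each point is 1 cell, Glutamatergic 1 in orange and Glutamatergic 2 in blue, filled for title numbers up to 40 and open above. Axes count the genes with a count in that cell, of the 14 named as lower in Glutamatergic 1 (horizontal) and the 14 named as higher (vertical); points are shifted slightly to show overlaps. Most Glutamatergic 1 cells lie at the upper left and most Glutamatergic 2 cells at the lower right, with Glutamatergic 1 cells 1, 2 and 4 among the Glutamatergic 2 cells and Glutamatergic 2 cells 11 and 12 in between. The genes were chosen on these cells.

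Nrp1, Neurod1, Zbtb20 and Sema4d were detected in nearly every Glutamatergic 2 cell and few Glutamatergic 1 cells. They were the genes on which this comparison was proposed, so their values are a description. Nrp1 (ENSMUSG00000025810, chromosome 8 from 128358604 to 128503363 on the plus strand of GRCm38) encodes the receptor neuropilin 1, which binds class 3 semaphorins. It stood at 0 to 356 CPM (median 0) in Glutamatergic 1 cells, 5 of 23 with a count, and at 49.3 to 743 CPM (median 308) in all 12 Glutamatergic 2 cells. The 3 highest Glutamatergic 1 values, 223, 356 and 261 CPM, were those of cells 1, 2 and 4, and the other 20 cells reached at most 20.3 CPM, below every Glutamatergic 2 cell. The log2 difference was -6.77 (SD 2.86 and 1.13), -2.60 by summed counts and -5.62 among paired cells. For titles up to 40 it was -3.30 and above 40 -7.40, and by summed counts -0.61 and -6.88.

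Neurod1 (ENSMUSG00000034701, chromosome 2 from 79452521 to 79456751, minus strand) encodes the bHLH factor of neuronal differentiation. It was at 0 in 20 of 23 Glutamatergic 1 cells, with 491, 1.41 and 107.99 CPM in cells 1, 2 and 4, and at 27.6 to 637 CPM (median 184) in all 12 Glutamatergic 2 cells. No Glutamatergic 1 cell outside those 3 had a single count. The log2 difference was -6.73 (SD 2.28 and 1.23), with -2.56 by summed counts and -6.69 among paired cells. For titles up to 40 it was -4.41, but the summed levels were 152 CPM in Glutamatergic 1 and 234 CPM in Glutamatergic 2, a log2 ratio of -0.62. Above title 40 the difference was -6.43. None of the 18 Glutamatergic 1 cells there had a count, which by a floor of 3 cells allows a share of up to 16.7% of cells with a count, missed transcripts aside, and the 3 Glutamatergic 2 cells stood at 27.6 to 190 CPM (median 117).

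Zbtb20 (ENSMUSG00000022708, chromosome 16 from 42875881 to 43642602, plus strand) encodes a zinc finger repressor known for specifying hippocampal CA1 neurons. It was detected in 8 of 23 Glutamatergic 1 cells, at 0 to 3476 CPM (median 0), and in 11 of 12 Glutamatergic 2 cells, at 0 to 5628 CPM (median 599). The ranges overlapped widely: Glutamatergic 1 cells 3 and 1 held 3476 and 1879 CPM, and Glutamatergic 2 cells 11 and 12 held 5.96 CPM and none. The log2 difference was -6.03 (SD 3.89 and 3.64), -2.64 for titles up to 40 and -3.49 above.

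Sema4d (ENSMUSG00000021451, chromosome 13 from 51685529 to 51793747, minus strand) encodes a transmembrane semaphorin that binds plexin B1. All 23 Glutamatergic 1 cells together held 27 counts of it, 0.125 CPM (95% interval 0.0821 to 0.181), in 3 cells at no more than 1.04 CPM. Glutamatergic 2 cells had 0 to 311 CPM (median 121), with a count in 11 of 12 and at least 10 CPM in each of these. Cells 1, 2 and 4 of Glutamatergic 1 thus stood at the level of the other cells of their label. Its log2 difference was -6.03 (SD 0.28 and 2.30), -5.63 for titles up to 40 and -6.99 above.

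The other 10 genes of the largest lower log2 differences lay from -5.12 to -5.64. They were taken by a rule that asked for a count in at least 50% of the cells of the higher label, at least 20 CPM there and 2-fold by several measures. Sh3yl1, an SH3 domain protein, had 1 count in all 23 Glutamatergic 1 cells (0.00462 CPM, interval 0.000117 to 0.0257) and 0 to 425 CPM (median 123.1) in Glutamatergic 2, 10 of 12 with a count. Ptk2b, the calcium-activated tyrosine kinase Pyk2, stood at 0 to 260 CPM (median 0) in Glutamatergic 1 cells and 0 to 489 CPM (median 207) in Glutamatergic 2 cells. Both were at 0 in the same 2 Glutamatergic 2 cells, 11 and 12. Arhgap1, a GTPase-activating protein, was detected in 13 of 23 Glutamatergic 1 cells but at a median of 0.252 CPM (highest 443), against 72.8 to 483 CPM (median 180) in Glutamatergic 2 cells.

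Adhesion and synaptic genes in this set were also held by most Glutamatergic 2 cells and few Glutamatergic 1 cells. Pcdh8, a protocadherin, had 0 to 277 CPM (median 0) in Glutamatergic 1 cells and 0 to 947 CPM (median 222) in Glutamatergic 2 cells. Gabra2, the alpha 2 subunit of the GABA-A receptor, had 0 to 723 CPM (median 0) in Glutamatergic 1 and 7.10 to 837 CPM (median 251) in Glutamatergic 2. Shisa6, an auxiliary protein of AMPA receptors, passed 10 CPM in 1 of 23 Glutamatergic 1 cells and 10 of 12 Glutamatergic 2 cells. Clstn2, a synaptic calsyntenin, passed 10 CPM in 5 of 23 Glutamatergic 1 cells and 12 of 12 Glutamatergic 2 cells, but its log2 ratio of summed counts for titles up to 40 was 0.21, so the lower level was not seen there by that measure. Cpne4, Zfp623 and Lrrn3 completed the set, at 54.1, 9.77 and 85.2 CPM of summed counts in Glutamatergic 1 and 224, 123.03 and 310.2 CPM in Glutamatergic 2. For titles up to 40 the summed levels of Cpne4 were 208 CPM in Glutamatergic 1 and 289 CPM in Glutamatergic 2, and those of Lrrn3 345 CPM in Glutamatergic 1 and 387 CPM in Glutamatergic 2, so the gap there was under 2-fold. By the log2 difference the 14 lower genes lay between -6.73 and -2.10 for titles up to 40 and between -7.40 and -1.74 above.

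**Figure D3:**
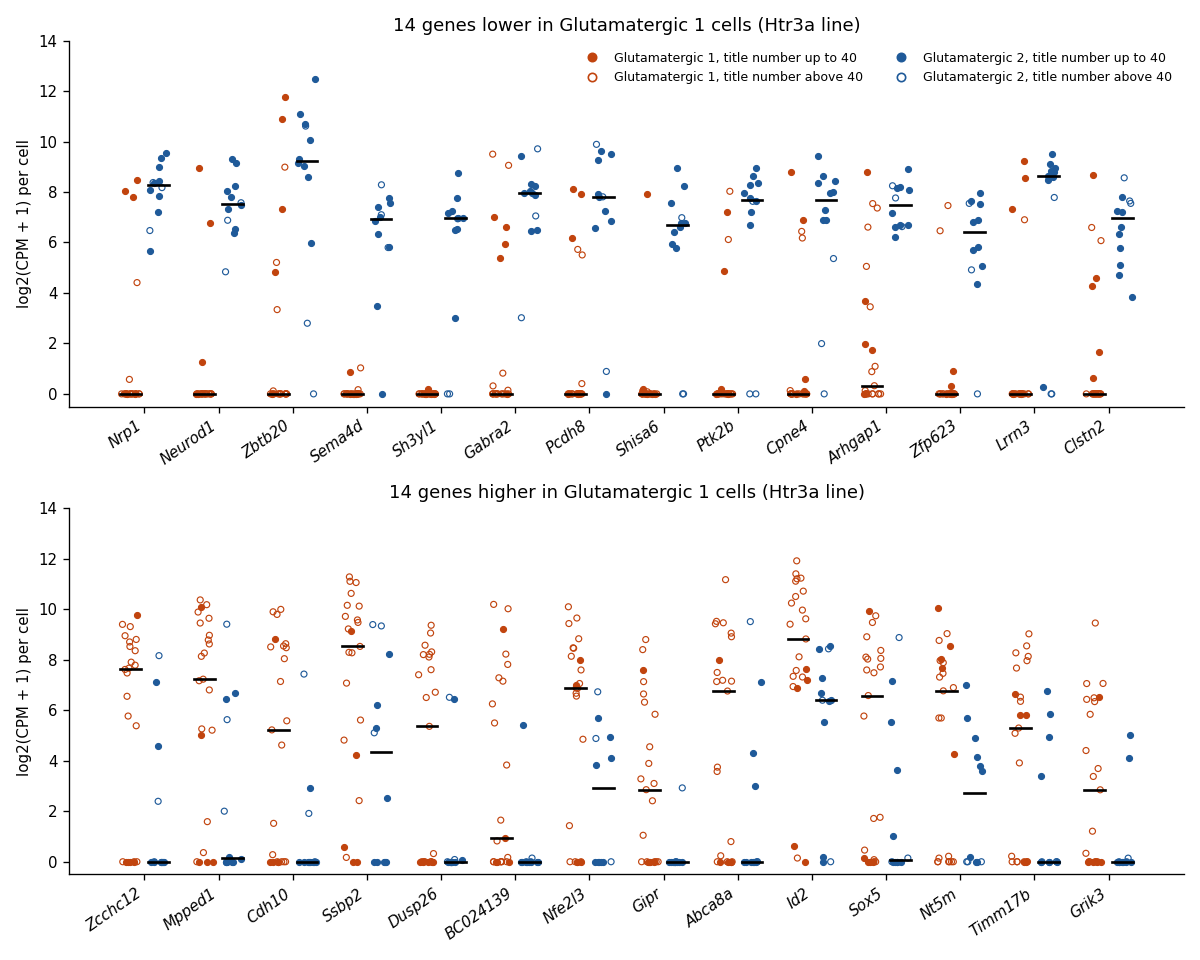
Level of each of the 28 genes named by rule, as log2(CPM + 1) in every cell, Glutamatergic 1 (orange) left of Glutamatergic 2 (blue). Filled points are cells with title numbers up to 40, open points cells above 40, and bars mark the median CPM on the same scale. In the upper panel most Glutamatergic 1 cells lie at 0 and most Glutamatergic 2 cells between 6 and 10; in the lower panel Glutamatergic 1 cells spread from 0 to 12 and many Glutamatergic 2 cells lie at 0.

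Genes higher in Glutamatergic 1 were fewer, with smaller and more scattered differences, from 2.32 to 3.71 on the log2 scale for the 14 named. Cdh10 (ENSMUSG00000022321, chromosome 15 from 18818947 to 19014236, plus strand), a classical cadherin, had 0 to 1023 CPM (median 36.4) in Glutamatergic 1 cells, 15 of 23 with a count, and 0 to 172 CPM (median 0) in Glutamatergic 2 cells, 3 of 12 with a count. At least 10 CPM was reached by 13 of 23 Glutamatergic 1 cells and 1 of 12 Glutamatergic 2 cells. Its log2 difference was 3.55 (SD 4.16 and 2.24), and 1.44 for titles up to 40 and 2.23 above. The spread between Glutamatergic 1 cells was larger than the difference.

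Transcriptional regulators in this set were Id2, Sox5, Nfe2l3 and Ssbp2. Id2 (ENSMUSG00000020644, chromosome 12 from 25093799 to 25097140, minus strand), the inhibitor of bHLH factors, had 0 to 3885 CPM (median 454) in Glutamatergic 1 cells and 0 to 377 CPM (median 83.4) in Glutamatergic 2 cells, with a count in 22 of 23 Glutamatergic 1 and 10 of 12 Glutamatergic 2 cells. Its log2 difference of 2.73 rested on titles above 40 (4.15), since for titles up to 40 it was -1.02. Sox5, a factor of deep layer neurons, had 0 to 977 CPM (median 95.05) in Glutamatergic 1 cells and 0 to 472 CPM (median 0.0527) in Glutamatergic 2 cells. Its log2 differences were 0.09 up to title 40 and 2.54 above, but summed counts went otherwise. Up to title 40 the summed levels were 154 CPM in Glutamatergic 1 and 13.2 CPM in Glutamatergic 2. Above title 40 they were 195 CPM in Glutamatergic 1 and 215 CPM in Glutamatergic 2. Nfe2l3, a bZIP factor, had 0 to 1099 CPM (median 117) in Glutamatergic 1 cells and 0 to 105.5 CPM (median 6.58) in Glutamatergic 2 cells. Its log2 difference was 0.93 up to title 40 and 2.30 above. Ssbp2, a cofactor of LIM-domain complexes, had a log2 difference of 3.18 overall but 0.32 up to title 40 and 0.25 above.

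The other 9 higher genes follow. Grik3, a kainate receptor subunit, had 0 to 703 CPM (median 6.21) in Glutamatergic 1 cells, 14 of 23 with a count, and 0 to 31.1 CPM (median 0) in Glutamatergic 2 cells, 3 of 12 with a count, and its log2 difference was 0.29 up to title 40 and 3.54 above. Gipr, the receptor of the gut hormone GIP, passed 10 CPM in 9 of 23 Glutamatergic 1 cells and 0 of 12 Glutamatergic 2 cells, with log2 differences of 1.52 and 2.60 in the lower and upper title ranges. Nt5m and Timm17b, of mitochondrial nucleotide metabolism and protein import, stood at 149 and 98.4 CPM of summed counts in Glutamatergic 1 and at 21.5 and 14.003 CPM in Glutamatergic 2, and both had a log2 difference above 1 in each title range (Nt5m 4.46 and 4.10, Timm17b 1.33 and 4.28). Zcchc12 and Mpped1 had the largest differences of the 14 genes named as higher, 3.71 and 3.60, with 0.65 and 1.53 up to title 40 and 3.05 and 1.32 above. Dusp26, a protein phosphatase, reversed within titles up to 40 (-0.72), and Abca8a, a transporter of the ABC family, stood there at -0.0022. BC024139 had a count in 14 of 23 Glutamatergic 1 cells and 2 of 12 Glutamatergic 2 cells.

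Exons of some named genes overlap those of others in GENCODE M21, among them Neurod1 with Cerkl, Nt5m with Cops3, BC024139 with Eppk1, Zbtb20 with Gm9968 and Sox5 with Sox5os1. Whether counting used strand is not stated, so counts of these partners cannot be told apart.

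Across the 9 type labels of the Htr3a line the genes lower in Glutamatergic 1 mostly peaked in Glutamatergic 2, a description since they were chosen on these cells. Glutamatergic 2 was the highest label by summed counts for 12 of the 14. Nrp1 stood at 311 CPM there, next at 131.1 CPM in Undefined and 87.3 CPM in VZ-derived cells, with 51.2 CPM in Glutamatergic 1. Neurod1 had no count in the MGE-derived, CGE-derived, GABAergic or Cajal Retzius cells of the line, so that Glutamatergic 1 with 34.9 CPM ranked second. Zbtb20 was detected across most labels, at 935 CPM in Glutamatergic 2, 449 CPM in Undefined, 352 CPM in Cajal Retzius and 180 CPM in Glutamatergic 1 cells. Of the 14 higher genes, Glutamatergic 1 was the highest label for 6, and Glutamatergic 2 was among the lowest 3 labels for 8. Neighbouring ranks were not tested.

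Cells of the Nex Cre line, driven by Neurod6, gave a partly different picture. The line had 10 Glutamatergic 1 cells and 1 Glutamatergic 2 cell, so the second label cannot be averaged. That cell, with 6590 genes and 10892279 counts, had no count of Nrp1, Zbtb20 or Sema4d and 95.02 CPM of Neurod1. It held 8 of the 14 lower genes, and 3 of the 14 were above the summed level of the Nex Glutamatergic 1 cells. In those 10 cells Neurod1 stood at 145.4 CPM with a count in 5, and Zbtb20, Abca8a and Zcchc12 had no count in any of the 10, which by the same floor allows a share of up to 30% of cells with a count. They held 3 to 8 (median 5.5) of the 14 higher genes, where the Htr3a Glutamatergic 1 cells held 2 to 14 (median 11). Line, animals and any batch cannot be told apart.

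Genes of cortical layers and areas were examined as lists. Of 22 deep layer genes 19 were measured, of which Sox5, Nfe2l3 and Cntn6 were higher by all 3 measures and Crym lower. That is 15.8% and 5.26% of the list, against 1.38% and 12.9% of all genes. Cntn6, a contactin adhesion protein, had 84.8 CPM in Glutamatergic 1 (9 of 23 cells) and 0.0742 CPM in Glutamatergic 2 (1 of 12 cells). Crym, a thyroid hormone binding protein, had 0 to 684 CPM (median 0) in Glutamatergic 1 cells and 0 to 1353 CPM (median 539) in Glutamatergic 2 cells. Unlike Sox5, the deep layer factors Bcl11b, Fezf2 and Tbr1 were not called by all 3 measures. Bcl11b stood at 160 CPM in Glutamatergic 1 and 74.6 CPM in Glutamatergic 2 (1.10 on the log2 scale by summed counts, 1.44 among paired cells and 0.71 by the log2 difference). Fezf2 stood at 227 CPM in Glutamatergic 1 and 140.9 CPM in Glutamatergic 2, and Tbr1 at 77.02 CPM in Glutamatergic 1 and 64.5 CPM in Glutamatergic 2. The median log2 difference of the list was 0.57, against -1.18 over all genes, but for titles up to 40 it was -0.93.

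Of 13 measured upper layer genes, Lhx2, Mdga1 and Rasgrf2 were lower by all 3 measures. The list's shares were 23.1% lower and 7.69% higher, against 12.9% and 1.38% of all genes. Lhx2, a LIM homeobox factor of cortical and hippocampal identity, had 0 to 137.3 CPM (median 0) in Glutamatergic 1 cells and 9.34 to 221 CPM (median 49.2) in all 12 Glutamatergic 2 cells, with log2 differences of -3.36 and -3.49 in the lower and upper title ranges. Emx2, another factor of dorsal telencephalic and hippocampal identity, had 0.0692 CPM in Glutamatergic 1 and 6.87 CPM in Glutamatergic 2.

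Genes used as marks of hippocampal fields lay lower in Glutamatergic 1. Of 25 on the list 13 were measured, and 6 of these were lower by all 3 measures and 0 higher, where 12.9% and 1.38% of all measured genes were. The 6 were Zbtb20, Nr3c2, Grik4, Fn1, Nrip3 and Lmo1, of which Zbtb20 was among the genes on which the comparison was proposed. Nr3c2, the mineralocorticoid receptor, had 0 to 374 CPM (median 0) in Glutamatergic 1 cells and 0 to 1268 CPM (median 107.6) in Glutamatergic 2 cells. The list's median was -2.56, with -1.58 by summed counts and -1.73 among paired cells. Prox1, Fibcd1, Meis2 and Dsp were at 0 in all Glutamatergic 2 cells, so not all field markers were present there.

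The summed level of the 25 genes followed the title number as well as the label. It was 439 to 4996 CPM (median 3188) in the 5 Glutamatergic 1 cells with titles up to 40 and 1262 to 7948 CPM (median 2737) in the 9 Glutamatergic 2 cells of that range. Above 40 it was 0 to 1805 CPM (median 235) in 18 Glutamatergic 1 cells and 210 to 3473 CPM (median 440) in 3 Glutamatergic 2 cells. Within a range the labels overlapped, and the sums are led by single genes such as Zbtb20 and Calb1.

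Axon guidance genes were lower in part. Among 13 measured neuropilins, plexins and partners, 4 were lower by all 3 measures and 1 higher, where 12.9% and 1.38% of all measured genes were. The 4 were Nrp1, Plxna4, Plxnb1 and Cntn2, and Chl1 was the higher gene. Nrp1 was among the genes on which the comparison was proposed. Plxna4, a plexin that pairs with neuropilin 1, had 0 to 887 CPM (median 0.105) in Glutamatergic 1 cells and 0.280 to 841 CPM (median 123.5) in Glutamatergic 2 cells, but its log2 difference was 0.06 for titles up to 40 and -6.46 above. Plxnb1, the receptor of Sema4d, was low in both labels, at 3.97 CPM in Glutamatergic 1 and 26.7 CPM in Glutamatergic 2. Nrp2 differed per cell (-3.31) and not by summed counts (-0.14, with 88.9 CPM in Glutamatergic 1 and 97.6 CPM in Glutamatergic 2). Chl1, an adhesion protein of the L1 family, had 527 CPM in Glutamatergic 1 (20 of 23 cells) and 147 CPM in Glutamatergic 2 (11 of 12 cells).

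Of 16 measured semaphorins, Sema4d, Sema4f and Sema5b were lower by all 3 measures and 0 higher (18.75%, against 12.9% of all genes), and Sema4d was among the genes on which the comparison was proposed. Sema5b had 0.458 CPM in Glutamatergic 1 and 42.3 CPM in Glutamatergic 2. Downstream of these receptors, 6 of 25 measured enzymes and collapsin response mediators were lower (Mical2, Mical3, Fyn, Rhoa, Rnd2 and Limk1, 24% of the list) and 2 higher, Cdk5 and Dpysl2. Dpysl2 (CRMP2) was found in every cell, at 38.2 to 4849 CPM (median 656) in Glutamatergic 1 and 84.2 to 894 CPM (median 340) in Glutamatergic 2, and its kinase Cdk5 stood at 242 CPM of summed counts in Glutamatergic 1 and 97.7 CPM in Glutamatergic 2. Among 26 ephrin, Slit, netrin and other guidance genes, Epha4, Epha6, Slit1, Robo1 and Rgmb were lower (19.2%). The ephrin receptor Epha4 had 0 to 1407 CPM (median 0.684) in Glutamatergic 1 cells and 0 to 1014 CPM (median 374) in Glutamatergic 2 cells.

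Cadherins split in both directions. Of 19 measured, Cdh4, Cdh10, Cdh18 and Pcdh10 were higher by all 3 measures and Cdh7, Cdh11, Cdh22, Pcdh8, Pcdh11x and Pcdh17 lower. That is 21.1% and 31.6% of the list, against 1.38% and 12.9% of all measured genes. Pcdh10 had 72.1 CPM in Glutamatergic 1 (13 of 23 cells) and 9.56 CPM in Glutamatergic 2 (3 of 12 cells), and Cdh4 had 78.3 CPM in Glutamatergic 1 (11 of 23 cells) and 5.32 CPM in Glutamatergic 2 (4 of 12 cells). Cdh11 had 0 to 1157 CPM (median 1.47) in Glutamatergic 1 cells and 28.96 to 660 CPM (median 124.9) in all 12 Glutamatergic 2 cells.

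Among 14 measured bHLH factors and targets, Neurod1, Tcf3 and Tcf4 were lower and Id2 higher by all 3 measures. That is 21.4% and 7.14% of the list, against 12.9% and 1.38% of all genes. Neurod1 was among the genes on which the comparison was proposed. Tcf4, an E protein that pairs with Neurod factors, had 273 CPM in Glutamatergic 1 (16 of 23 cells) and 644 CPM in Glutamatergic 2 (12 of 12 cells). Neurod2 did not follow Neurod1, with 154 CPM in Glutamatergic 1 (22 of 23 cells) and 103.4 CPM in Glutamatergic 2 (12 of 12 cells). Neurod6 was lower per cell (-3.13) but less so by summed counts (-0.82, with 433 CPM in Glutamatergic 1 and 766 CPM in Glutamatergic 2). For newborn neuron genes, 5 of 17 measured were lower (Neurod1, Rnd2, Nrp1, Plxna4 and Islr2) and 0 higher. The lower share was 29.4%, against 12.9% of all genes, and it includes Neurod1 and Nrp1, on which the comparison was proposed.

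Immediate early genes, transcribed within minutes of calcium entry or growth factor signals through factors such as CREB and SRF, had the largest share of lower members among the lists with at least 13 measured members. Promoters are shown for 3 of these genes, Fos, Junb and Nr4a3, because the cyclic AMP response element is their known link to activity. These 3 are examples from the members lower by all 3 measures, and other such members, among them Arc, are not shown. The bases before the gene's start follow from RefSeq on GRCm38.p6, 5′ to 3′ on the gene's strand, with the core of that element (TGACG, or CGTCA on the other strand) in capitals.
Fos, chr12:85473640-85473889, plus strand: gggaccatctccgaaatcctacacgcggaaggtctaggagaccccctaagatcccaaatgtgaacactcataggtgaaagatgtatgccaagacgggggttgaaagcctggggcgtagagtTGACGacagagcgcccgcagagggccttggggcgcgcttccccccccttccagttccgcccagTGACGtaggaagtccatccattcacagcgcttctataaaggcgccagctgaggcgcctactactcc
Junb, chr8:84978749-84978998, minus strand: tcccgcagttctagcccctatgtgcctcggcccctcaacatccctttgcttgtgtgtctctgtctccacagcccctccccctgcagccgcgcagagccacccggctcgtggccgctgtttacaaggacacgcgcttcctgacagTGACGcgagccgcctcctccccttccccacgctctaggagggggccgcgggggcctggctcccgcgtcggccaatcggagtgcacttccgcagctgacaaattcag
Nr4a3, chr4:48045055-48045152, plus strand: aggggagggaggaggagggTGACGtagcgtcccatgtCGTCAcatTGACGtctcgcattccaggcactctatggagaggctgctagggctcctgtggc
Fos shows 2 cores, the nearer 66 bases before the start, and Junb shows 1. The 98 bases of Nr4a3 hold 3 cores, 231, 213 and 205 bases before the RefSeq start, and end where GENCODE places the first exon. The core is short: 5347 of 27025 genes (19.8%) hold it in the 250 bases before their start, as do 17 of the 22 listed genes with a promoter in the table. A match says nothing of binding in these cells.

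Of 26 immediate early genes 22 were measured, of which 13 were lower by all 3 measures and 0 higher, where 12.9% and 1.38% of all measured genes were. Of the 13, 10 had a promoter in the table and 7 of these held the core. Fos stood at 0 to 1420 CPM (median 1.02) in Glutamatergic 1 cells, 13 of 23 with a count, and at 0 to 4458 CPM (median 388) in Glutamatergic 2 cells, 11 of 12 with a count. Junb stood at 0 to 467 CPM (median 0.154) in Glutamatergic 1 and 0 to 460 CPM (median 154) in Glutamatergic 2. Nr4a3, an orphan nuclear receptor, stood at 0 to 760 CPM (median 0) in Glutamatergic 1 and 0 to 306 CPM (median 115) in Glutamatergic 2. The highest Glutamatergic 1 cells lay within the range of Glutamatergic 2 cells for Fos and above it for Junb and Nr4a3, while the medians of Glutamatergic 1 lay near 0. Over all measured genes the share of values at 0 was 52.5% in Glutamatergic 1 and 32.1% in Glutamatergic 2.

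Arc, which acts in synaptic plasticity, had a count in 3 of 23 Glutamatergic 1 cells, 1 of them above 10 CPM (107.7 CPM, cell 18), and in 7 of 12 Glutamatergic 2 cells (median 79.1, highest 275 CPM). Egr1 was detected more evenly, in 18 of 23 Glutamatergic 1 cells at a median of 160 CPM and in 11 of 12 Glutamatergic 2 cells at a median of 371 CPM. Fosb, Fosl2, Jund, Npas4, Nr4a1, Ier2, Dusp6 and Atf3 were the other lower members, with log2 ratios of summed counts from -2.68 (Fosb) to -1.11 (Dusp6). Jun was lower per cell (-3.84) and not by 2-fold in summed counts (-0.43). The list's median log2 difference was -2.50, with -1.51 by summed counts and -1.68 among paired cells.

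Title number also went with these genes. For titles up to 40 the list's median was -2.35, against -1.20 over all genes, and above 40 it was -0.64, against -0.59 over all genes. Up to title 40, Fos had a count in every cell and stood at 1.02 to 1420 CPM (median 166) in Glutamatergic 1 and 117.2 to 4458 CPM (median 622) in Glutamatergic 2. Fos passed 10 CPM in 4 of 5 Glutamatergic 1 and 9 of 9 Glutamatergic 2 cells up to title 40, and in 7 of 18 Glutamatergic 1 and 2 of 3 Glutamatergic 2 cells above. The lower level in Glutamatergic 1 was seen within titles up to 40, and above 40 was close to that of all genes, with 3 Glutamatergic 2 cells. Of 16 measured heat shock and stress genes only Dnajb1 was lower by all 3 measures and 0 higher (6.25%, against 12.9% of all genes).

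**Figure D4:**
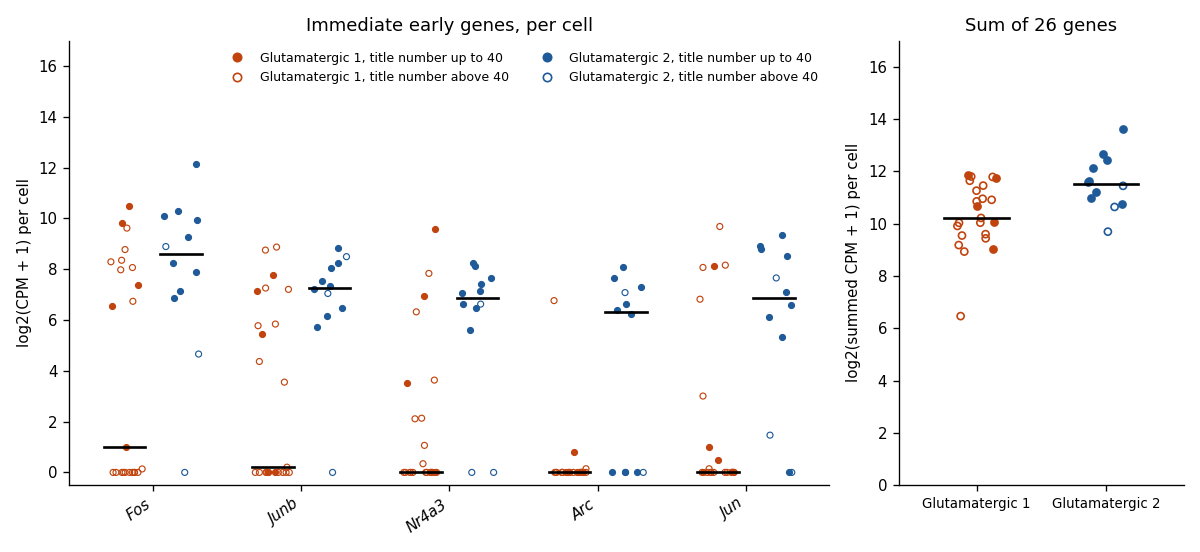
Left, log2(CPM + 1) of 5 immediate early genes in every cell, Glutamatergic 1 (orange) left of Glutamatergic 2 (blue), filled for title numbers up to 40 and open above, with bars at the median CPM. Right, the sum of the 26 genes per cell on the same scale. Fos, Junb and Nr4a3 reach like levels in some cells of both labels while most Glutamatergic 1 cells lie near 0, and the sums overlap, with medians of 1190 CPM in Glutamatergic 1 and 2932 CPM in Glutamatergic 2.

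Receptors and channels were lower in part as well. Of 13 measured GABA-A receptor and chloride transporter genes, Gabra2 and Gabra4 were among those lower by all 3 measures and 0 were higher. Gabra4 had 10.1 CPM in Glutamatergic 1 (7 of 23 cells) and 104.7 CPM in Glutamatergic 2 (10 of 12 cells). Gabra5, a subunit typical of young and hippocampal neurons, had 226 CPM of summed counts in Glutamatergic 1 and 582 CPM in Glutamatergic 2, but its difference among paired cells was -0.18. Of 27 measured potassium channel genes 8 were lower and 0 higher (29.6% lower, against 12.9% of all genes). Kcnd2, Kcnd3, Kcnip1 and Kcnip2 of the A-type current were among the 8. Kcnip2, an auxiliary subunit, had 24.98 CPM in Glutamatergic 1 (8 of 23 cells) and 209 CPM in Glutamatergic 2 (8 of 12 cells), yet for titles above 40 its log2 difference was 1.25.

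Ionotropic glutamate receptors went both ways. Of 14 measured, Gria1, Grik1, Grik2 and Grik4 were lower by all 3 measures and Gria4 and Grik3 higher. That is 28.6% and 14.3% of the list, against 12.9% and 1.38% of all genes. Gria1 (GluA1) had 0 to 1205 CPM (median 63.1) in Glutamatergic 1 cells and 50.3 to 1295 CPM (median 545) in Glutamatergic 2 cells, but 0.32 on the log2 scale for titles up to 40 and -3.65 above. Gria4 (GluA4) had 33.5 CPM in Glutamatergic 1 (13 of 23 cells) and 8.97 CPM in Glutamatergic 2 (3 of 12 cells). Gria2, the most widely detected of the list, had 783 CPM of summed counts in Glutamatergic 1 and 987 CPM in Glutamatergic 2, with a count in every cell of both labels. Among kainate receptor subunits, then, Grik3 lay on the Glutamatergic 1 side and Grik1, Grik2 and Grik4 on the Glutamatergic 2 side by these measures. Single pairs of cells were split for Grik4, which was lower in Glutamatergic 1 in 3 of 9 and higher in 5.

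Synaptic release and scaffold genes differed less among cells paired by gene number or by summed counts. Of 23 measured presynaptic genes 20 had a log2 difference of at most -1, where 56.1% of all measured genes did. By all 3 measures, however, only Syn1, Syt4, Cplx2 and Rims1 were lower, 17.4% against 12.9% of all genes. Of 30 measured postsynaptic density genes only Camk2a, Iqsec1 and Cnih2 were lower by all 3, a share of 10%. Sodium and calcium channel genes lower by all 3 included Cacna1h and Cacna2d3 and made up 15% of 20 measured. Of the neurexins, presynaptic adhesion proteins, Nrxn2 stood at 22.9 CPM in Glutamatergic 1 (13 of 23 cells) and 14.1 CPM in Glutamatergic 2 (11 of 12 cells), and Nrxn3 at 49.2 CPM in Glutamatergic 1 (14 of 23 cells) and 65.2 CPM in Glutamatergic 2 (9 of 12 cells). Neither passed 1 on all 3 measures. Among 23 measured neurexin ligands and partners, the calsyntenins Clstn2 and Clstn3 and the latrophilin Adgrl3 were lower and 0 higher, a lower share of 13.04% that is that of all genes (12.9%).

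Among 26 splicing regulators Khdrbs3, Ptbp1, Ptbp3, Celf6 and Elavl1 were lower by all 3 measures and 0 higher (19.2%, against 12.9% of all genes). The list's median was -0.99 by the log2 difference, 0.17 by summed counts and -0.16 among paired cells, so the list as a whole was not lower by each measure. Khdrbs3 (SLM2), which acts on neurexin splicing, had 80.6 CPM in Glutamatergic 1 (15 of 23 cells) and 227 CPM in Glutamatergic 2 (11 of 12 cells). Ptbp1, the repressor of neuronal exons found in progenitors and other cells, had 11.97 CPM in Glutamatergic 1 (6 of 23 cells) and 99.4 CPM in Glutamatergic 2 (10 of 12 cells). Its neuronal relative Ptbp2 had 249.3 CPM of summed counts in Glutamatergic 1 and 281 CPM in Glutamatergic 2. Splice forms were not analysed here.

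Housekeeping and general neuronal genes did not follow the split by all 3 measures. None of 30 cytoskeleton, 15 pan-neuronal, 32 oxidative phosphorylation and 13 mitochondrially encoded genes was called in either direction, and of 28 ribosome and elongation genes only Rps4x was, higher at 458 CPM in Glutamatergic 1 and 130.7 CPM in Glutamatergic 2. Tubb3, a neuronal tubulin, had 2108 CPM of summed counts in Glutamatergic 1 and 1705 CPM in Glutamatergic 2, and Mapt, the tau gene, had 1302 CPM in Glutamatergic 1 and 985 CPM in Glutamatergic 2. Of 31 chromatin genes Kdm6b and Smarca2 were higher and Tet1, Chd8 and Arid1b lower (6.45% and 9.68%, against 1.38% and 12.9% of all genes). Reln, secreted by Cajal-Retzius cells and some other neurons, was higher by all 3 measures, at 78.9 CPM in Glutamatergic 1 (10 of 23 cells) and 1.15 CPM in Glutamatergic 2 (5 of 12 cells). Trp73, Lhx1 and Lhx5 of Cajal-Retzius cells were at 0 in Glutamatergic 2, but 11 of 18 such markers had a count there. The 18 together had a median of 169 CPM in Glutamatergic 1 cells and 239 CPM in Glutamatergic 2 cells.

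**Figure D5:**
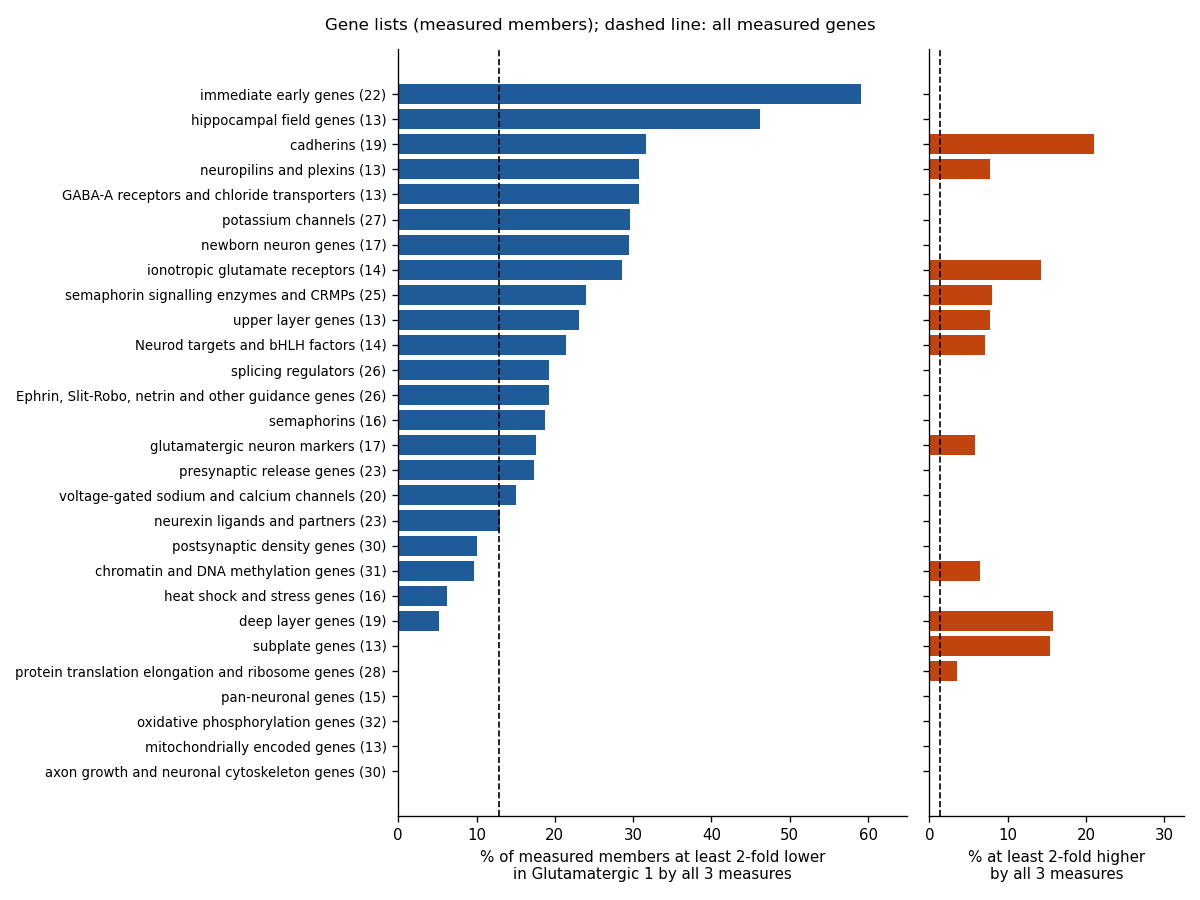
For each gene list with at least 13 measured members (number in brackets), the share of measured members at least 2-fold lower (left, blue) or higher (right, orange) in Glutamatergic 1 by all 3 measures. Dashed lines mark the shares over all measured genes, 12.9% and 1.38%. Immediate early and hippocampal field genes have the largest shares of lower members, cadherins the largest share of higher ones among the lists shown, and 4 lists have no member on either side.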

How the data were processed

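RNA of 162 single mouse cells was measured, and 35 of them were compared here. The submitters' processing notes list Trimmomatic, STAR, featureCounts and GRCm38; versions and the strand setting are not given in the sources used here. The authors deposited whole-number counts per gene and cell by Ensembl identifier, used here, and by symbol (9724 rows were held). They also deposited a normalized signal table; dividing a cell's counts by its own single factor gave 99.8% of those values to within 0.1%, and the origin of that factor is not stated. These other tables served as alternatives.

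GENCODE M21 gave symbols for 22570 of 22880 rows, and summing by symbol left 22879 genes. Each count was scaled by the total of its cell. Groups came from the submitters' type, line and quality labels, and 1 failed Glutamatergic 1 cell was left out. No cells had identical counts. With no animal labelled, no test, p-value or standard error was computed.

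A gene was eligible for naming if it had counts in 50% or more of the higher label's cells and 20 CPM or more there. It also needed a 2-fold gap in summed counts, in mean CPM and without its highest cell, and the same direction among paired cells. That held for 170 higher and 787 lower genes. The 14 with the largest log2 difference each way were named. Up to 5 members of each list with the largest difference were named too. Other list members, among them those called by all 3 measures, were named after their values were seen, and a few list members are not reported here. Members, the 43 gene lists and the rules were chosen with earlier results of these data known, and the call by all 3 measures after seeing the data. The steps were checked on simulated counts. Alternatives covered scaling, pseudocount, filter, table, gene number, title number, line and left-out cells.

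Python 3.11.15 and R 4.3.3 with edgeR 4.0.16 (TMMwsp factors only) were used.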

Additional observations from a re-analysis of the deposited data

How the results depend on the processing

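The shares of measured genes past 2-fold depended on the measure. By the mean log2 difference 2.08% were higher and 56.1% lower in Glutamatergic 1, with a median of -1.18; summed counts gave 14.5%, 20.2% and -0.079, cells paired by gene number 11.1%, 34.4% and -0.48, and a fit with gene number 16.1%, 24.98% and -0.16. A pseudocount of 0.1 gave 3.26% higher and a median of -1.90, and one of 10 gave 0.664%, 24.7% and -0.50. The median was -0.60 over genes with any count, -1.37 over those counted in at least 18 cells and -1.03 in the authors' normalized table. Adding the Nex line gave 1.28% higher, and leaving out each gene's highest cell gave 1.27% higher and a median of -0.84. Titles up to 40 gave 7.21% higher, and titles above 40 gave 17.53% higher and a median of -0.59. Without the 2 Glutamatergic 1 and 2 Glutamatergic 2 cells over 1000 CPM of microglia markers the median was -1.34. TMMwsp scaling, thinning, the table by symbol and leaving out Glutamatergic 1 cells 1, 2 and 4 moved no share by 1.5 times. The cells of the last setting and those over 1000 CPM were chosen after seeing the data. The cause of the shifts was not tested.

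By all 3 measures 1.38% of genes were higher and 12.9% lower. Pseudocount 0.1 gave 2.30% higher, pseudocount 10 gave 0.381% and 6.36%, and the filter of at least 18 cells gave 8.28% lower. Titles up to 40 gave 3.88% higher and 22.6% lower, and titles above 40 gave 12.7% higher. Leaving out each cell in turn gave 1.95% to 2.65% higher, 53.8% to 58.9% lower and a median of -1.26 to -1.11, and by all 3 measures 1.21% to 1.93% higher and 12.5% to 13.99% lower. In that exercise no named gene or list median past 2-fold changed sign.

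Of 28 genes named by rule, 25 had the same sign under each of the other settings that gave them a value. Those settings numbered 17 for 10 genes and 16 for the 18 genes not used from the table by symbol. By the log2 difference for titles up to 40 Dusp26 (-0.72), Abca8a (-0.0022) and Id2 (-1.02) turned. The rule itself asked for the same direction by summed counts and among paired cells, so the signs by those measures were fixed in advance. Within title ranges, signs by summed counts were not part of this count. Of 629 list medians under other settings 54 turned sign, 14 of them with summed counts, 10 among paired cells, 9 in the fit with gene number, 7 above title 40 and 5 up to 40. Among the 21 lists with a median past 2-fold 6 turned, with summed counts for glutamatergic markers (0.19), intermediate progenitor markers (0.071), ionotropic glutamate receptors (0.052) and chromatin genes (0.073), and above title 40 for intermediate progenitor (0.48) and astrocyte markers (0.37). No paired analysis was possible because replicate numbers here only follow the order of records and tie no cells by origin; the 9 pairs used as a measure were matched on gene number alone. With 1 sample a label, the spread between animals is not measured; the depth of 1828374 counts or more per cell sets the counting error, and the number of genes with a count differed between the labels also with every cell thinned to the same total.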
